A study of Mus musculus with 6 samples.

Results

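Wfdc1, Wfdc2, Wfdc3, Wfdc18 and Slpi are the 5 genes described here. They were taken by name from the gene tables as members of the whey acidic protein (WAP) domain family, and all 5 were present among the 24077 genes of the single-cell table and among the 30828 genes of the spatial tables. The animals were female CD-1 mice given daily injections under the skin from day 1 to day 5 of life, of the corn oil vehicle (CO) or of diethylstilbestrol (DES), a synthetic estrogen, at 1 mg/kg/day in that oil. When the mice were 12 months old, uteri were taken from CO mice chosen in estrus and from DES mice in persistent estrus. Neonatal DES of this kind leads to uterine adenocarcinoma. Single cells came from 1 CO library of 2 pooled mice and 1 DES library of 4 pooled mice, and spatial RNA came from 2 CO and 2 DES sections, named CO A, CO B, DES A and DES B, of 1 mouse each. A pathologist first checked DES tissue for adenocarcinoma, then 2 mice per group were selected and blocks cored to chosen areas. The DES sections therefore need not stand for DES uteri in general.

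The WAP domain is a small fold held together by disulfide bonds, and most proteins that carry it are secreted. Slpi, the secretory leukocyte protease inhibitor, blocks elastase and cathepsin G released by neutrophils and is made by mucosal surfaces and by leukocytes. Wfdc2 is a glandular secretory protein of the reproductive tract and airways that is measured in blood as a marker of ovarian cancer, Wfdc18 is an extracellular proteinase inhibitor known from the mouse mammary gland, and Wfdc1 is a secreted protein first described in prostate stroma. In the reproductive tract such inhibitors meet serine proteases of the epithelium, of mast cells and of neutrophils.

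In the GRCm38 annotation, 3 members lie on chromosome 2: Slpi at chr2:164354070-164389095 on the minus strand, Wfdc2 at chr2:164562413-164568510 on the plus strand and Wfdc3 at chr2:164731180-164745931 on the minus strand. Wfdc18 lies at chr11:83709015-83711348 on the plus strand and Wfdc1 at chr8:119666365-119688222 on the plus strand. Slpi overlaps the microRNA gene Mir7678 on its own strand, and Wfdc1 overlaps Gm32352 on the opposite strand, so Wfdc1 counts are uncertain if reads of both were not kept apart by strand. Levels are given as CPM, the number of unique molecular identifiers (UMIs, each standing for 1 captured RNA molecule) per 1000000 UMIs of the same cells or spots. CPM counts molecules by an end tag and is not divided by gene length, so levels were compared within a gene.

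The CO library held 32387 cells and the DES library 16312, of which 12253 and 9701 carry a deposited cell type, and 180 barcodes occurred in both libraries. The single-cell libraries were not replicated, so their values carry exact Poisson 95% intervals that cover counting error only and no test was made between them. The sections held 9117099 to 12506177 UMIs over 1357 to 1834 spots. CO B has a tissue fold and DES B was described by the authors as limited in telling clusters apart. The labelled classes carried their markers: Epcam was 1040 CPM in CO and 793 CPM in DES epithelial cells, and the mesothelial marker Msln was 660 CPM in CO and 956 CPM in DES mesothelial cells. Only 1 DES cell was typed as stromal, so stromal levels in cells are those of CO.

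The 5 genes marked different cells of the uterus, as the plot of levels by cell type shows. Wfdc2, Wfdc3 and Wfdc18 were highest in epithelial cells or in a cluster of them. Slpi was highest in mesothelial cells, the layer that covers the organ, and in plasma-marker cells. Wfdc1 was highest in mesothelial cells and in the CO class named Ctla2a. It was lower in Stmn1-hi, mural and smooth muscle cells and near 0 in epithelium.

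A Wfdc2 UMI was found in 99.96% of CO epithelial cells. That share rises with depth, here a median of 23458 UMIs per cell, so it does not show transcription in each cell. The Wfdc2 promoter is shown because the gene stood at 1187 CPM or more in every CO and DES epithelial cluster. The sequence runs from 250 bases before to 50 bases after the start site (RefSeq, GRCm38.p6, chr2:164562465-164562764, plus strand), and capitals mark a copy of GGTCA, a single arm of the estrogen response element, which begins 4 bases before the start.
Wfdc2: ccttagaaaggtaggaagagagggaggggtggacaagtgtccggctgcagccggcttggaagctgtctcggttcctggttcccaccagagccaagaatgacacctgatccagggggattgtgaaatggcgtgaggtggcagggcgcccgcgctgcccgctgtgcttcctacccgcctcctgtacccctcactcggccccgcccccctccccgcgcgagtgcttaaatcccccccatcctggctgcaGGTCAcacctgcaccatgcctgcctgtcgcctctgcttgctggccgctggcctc
On either strand, GGTCA was found in 40.2% of 27025 promoters of this length, and the full element, in which GGTCA is followed after 3 bases by TGACC, also contains it. The full element was found in 0.0666% of promoters and in none of the 4 member promoters held in the table, those of Wfdc2, Wfdc3, Wfdc18 and Slpi. The windows of Wfdc2, Wfdc3 and Slpi lie inside the annotated gene intervals, and other start sites of these genes were not searched.

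In non-basal epithelial cells, the cells of the 15 CO and 16 DES epithelial clusters of the authors, Wfdc2 was 2586 CPM in 2583 CO cells (95% interval 2575 to 2597) and 4106 CPM in 4608 DES cells (4097 to 4116). The DES to CO ratio was 1.59 (counting interval 1.58 to 1.60), with no replicate check. Of 16040 genes with at least 20 UMIs in these cells, 4691 (29.2%) differed by over 2-fold between the 2 libraries in either direction, of which Wfdc18 (higher in DES) and Wfdc1 (lower in DES) were members and Wfdc2 was not. The Wfdc1 values were only 1.79 CPM in CO and 0.750 CPM in DES. Their shares of the mesothelial level were below those of mesothelial markers, as given with that gene. Quartiles over single cells also differed. Wfdc2 UMIs per 10000 had a median of 22.6 in CO cells, with quartiles of 17.3 and 30.3, and a median of 39.3 in DES cells, with quartiles of 31.1 and 49.3. The upper CO quartile therefore lay below the lower DES quartile, but these quartiles are over cells of 1 library each and not over mice.

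Among CO epithelial cells Wfdc2 was highest in 3 of the 4 glandular clusters. Cluster 8 held 7302 CPM (7185 to 7421), cluster 3 held 5791 CPM and cluster 14, the proposed glandular progenitors, held 4807 CPM. The remaining glandular cluster, cluster 13, which the study called mature glandular epithelium, held only 1772 CPM (1686 to 1862). Over the 4 glandular clusters together the level was 5629 CPM, against 2229 CPM over the 10 luminal clusters. Luminal clusters ranged from 1187 CPM in cluster 11 to 2658 CPM in cluster 5, and cluster 12, which the study proposed as epithelial stem cells, held 1408 CPM. Along the glandular trajectory of the study, cluster 4 held 9620 CPM and cluster 7 held 970 CPM. DES clusters were more even, from 2441 CPM in cluster 14 to 5584 CPM in cluster 12, with a median of 3976 CPM over 16 clusters against 2169 CPM over the 15 CO clusters. The DES basal clusters 8 and 11 of the integrated clustering held 1414 and 1774 CPM. Clusters were formed on these same counts, so these levels are descriptive. In the spots of section CO A the gland did not stand higher. Spot cluster 5, where the study placed glandular epithelium, held 2300 CPM of Wfdc2. Spot clusters 1 and 3, which also carried Epcam, held 3162 and 2774 CPM.

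**Figure D1:**
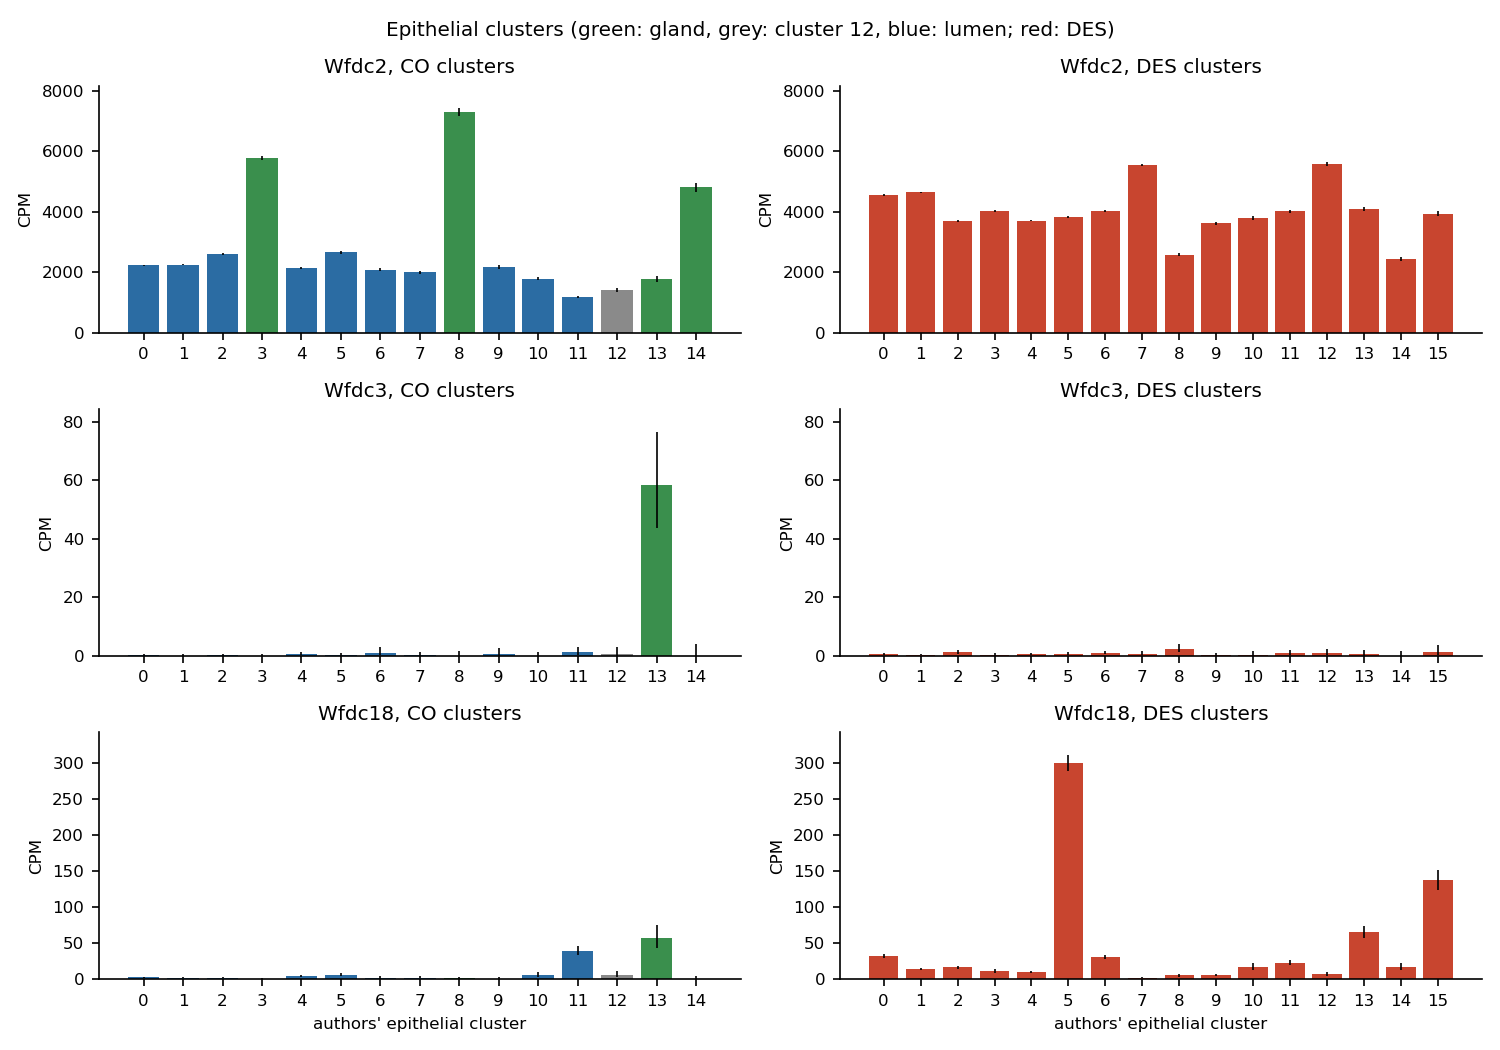
CPM of Wfdc2, Wfdc3 and Wfdc18 (rows, linear axis from 0) in each CO (left) and DES (right) epithelial cluster of the authors, with bars for exact Poisson 95% intervals. Green marks CO gland clusters, blue CO lumen clusters and grey CO cluster 12. Wfdc2 peaked in CO cluster 8, Wfdc3 in CO cluster 13 at 58.4 CPM and Wfdc18 in DES cluster 5 at 299.8 CPM.

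Outside the epithelium Wfdc2 was detected at a low and even level. In the other 8 CO types with enough cells it ranged from 182 to 370 CPM, 7.05% to 14.3% of its epithelial level, and in 4 DES types from 179 to 395 CPM, 4.54% to 10.0%. The epithelial markers Epcam, Cdh1, Ltf and Cldn7 fell in the same range, from 6.61% to 22.3% of their epithelial level in those CO types and from 2.84% to 15.0% in those DES types. Type by type, Wfdc2 lay within or below the marker range in all but 2 of these types. In CO Ctla2a cells it was 12.21% where the markers ended at 12.15%, and in DES mesothelial cells 4.54% where they ended at 4.46%. Whether the signal outside the epithelium was RNA released by broken cells was not tested.

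In the tissue sections the DES to CO order of Wfdc2 was the opposite of that in cells. Each spot was assigned to epithelium, stroma or muscle by the highest of 3 scores over marker genes that include none of the 5 members. A spot covers several cells, and in summed spots fewer cells of a type and less RNA per cell cannot be told apart. In epithelium-rich spots Wfdc2 was 2984 CPM in CO A and 3414 CPM in CO B. DES A held 1826 and DES B 1701 CPM. Both DES sections lay below both CO sections. The log2 fold change, DES over CO, was -1.12 (SE 0.19, edgeR quasi-likelihood test, adjusted p = 0.042), and 674 of 13017 genes tested (5.18%) passed the threshold of 0.05 in that comparison. The call was lost without DES A (log2 -1.14, edgeR adjusted p = 0.32) and without DES B (log2 -1.10, edgeR adjusted p = 0.33) and just missed in the top 25% of spots by score (log2 -1.09, edgeR adjusted p = 0.050), although the value barely moved. The summed CPM of the 5 epithelial markers in the same spots was 3802 and 3004 in CO and 3049 and 3536 in DES, so the marker sums of the groups overlapped. Markers of basal epithelium (Krt5, Krt14, Trp63 and Col17a1) did move with the groups, at 3.92 and 169 CPM summed over whole CO sections and 9769 and 5820 CPM over whole DES sections. In epithelium-rich spots with 0, 1 to 4, 5 to 19 and 20 or more UMIs of these markers, Wfdc2 was 3691, 3119, 2431 and 1059 CPM in CO B and 3711, 3029, 2437 and 1729 CPM in DES A. It showed no such order in DES B, with 1456, 1938, 1810 and 1690 CPM, where the first class was 5 spots, and CO A had no spot in the upper classes. The part of basal cells in the Wfdc2 difference was not tested.

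Over whole sections Wfdc2 was 2049 and 2179 CPM in CO and 1527 and 1459 CPM in DES (log2 -0.71, SE 0.16, edgeR adjusted p = 0.080), which missed the threshold that 730 of 14098 genes (5.18%) passed. Stroma-rich spots held 1728 and 1727 CPM in CO and 1044 and 1211 CPM in DES (log2 -0.74, edgeR adjusted p = 0.20). Muscle-rich spots held 354 and 633 CPM in CO and 601 and 728 CPM in DES (log2 0.17, edgeR adjusted p = 0.83), and here the groups overlapped. The muscle-rich level was 11.9% and 18.6% of the epithelium-rich level in CO, where the 5 epithelial markers gave 2.43% to 21.7%, and 32.9% and 42.8% in DES, where they gave 16.1% to 43.9%. The CPM of the 5 markers in muscle-rich spots was 349 and 363 in CO and 827 and 1327 in DES, while that of Wfdc2 overlapped between the groups. Over the 31 CO and DES epithelial clusters of the cells, the genes whose log levels were most like Wfdc2 were Ppl (Pearson's r = 0.83), Ptprr (r = 0.80) and Spint2 (r = 0.79), among 4688 genes. Over 37 spot clusters of the 4 sections with at least 20 spots, a likeness added after the data were seen, they were Fxyd4 (r = 0.96), Cxcl17 (r = 0.96) and Tmprss4 (r = 0.95), among 7636 genes. Clusters of 1 library or section share its depth.

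**Figure D2:**
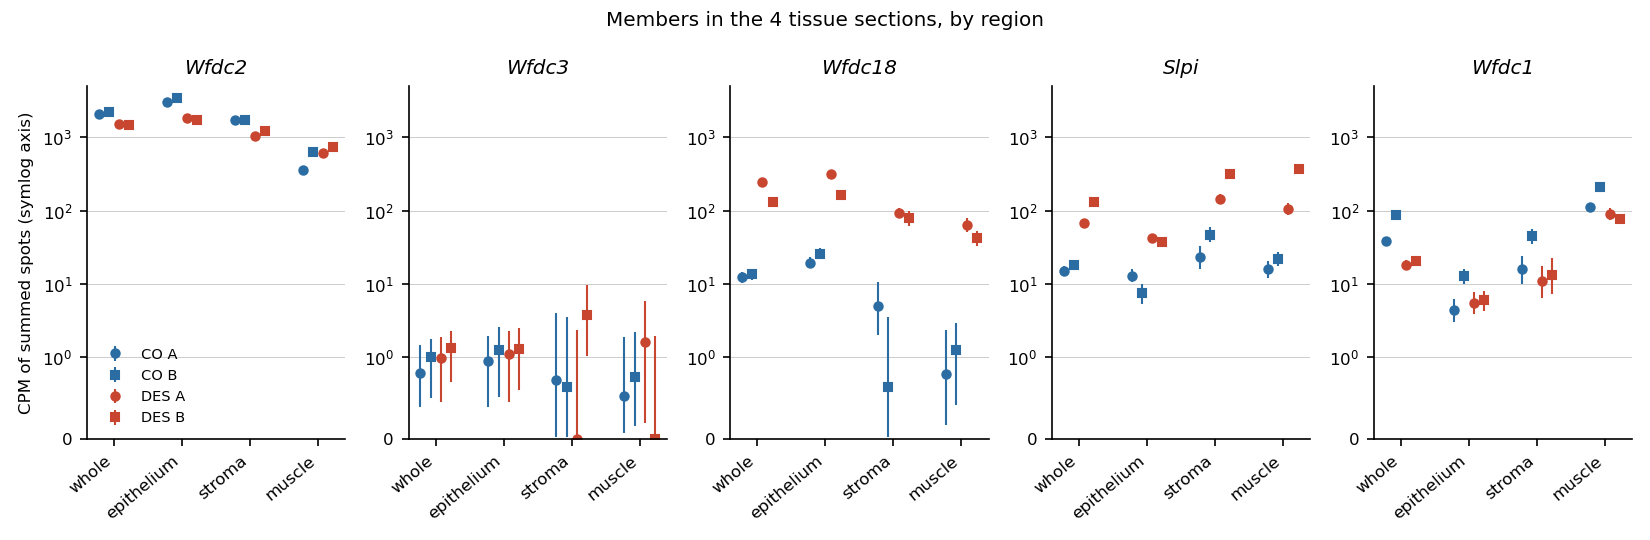
CPM of each member (panels, axis linear below 1 and logarithmic above) over whole sections and over the epithelium-rich, stroma-rich and muscle-rich spots of the 4 sections, with bars for exact Poisson 95% intervals. CO sections are blue and DES sections red, with circles for A and squares for B. Both DES sections lie above both CO sections for Wfdc18 and below them for Wfdc2 in epithelium-rich spots.

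Wfdc3 was the rarest member and was concentrated in 1 CO epithelial cluster. CO cluster 13, with 62 cells, held 52 of the 75 Wfdc3 UMIs of CO epithelium (69.3%) at 58.4 CPM (43.6 to 76.6), while the other 14 CO clusters held at most 1.33 CPM and the 16 DES clusters at most 2.51 CPM, in DES cluster 8. Of the 62 cells 22 carried a Wfdc3 UMI, or 13.3% of 60 cells after thinning to 3000 UMIs (exact interval 5.94% to 24.6%). Cluster 7 of the glandular trajectory held 48 UMIs at 73.9 CPM, and cluster 5 held 4 UMIs. In CO cluster 13, 17 cells carried Wfdc18 and 11 carried both genes. A promoter of Wfdc3 is shown for this restricted pattern (RefSeq, GRCm38.p6, chr2:164743218-164743517, minus strand, same window). It lies inside the annotated gene interval, so its start is not the outermost one of the gene. The capitals mark a copy of GGTCA read on the opposite strand, which begins 148 bases before this start.
Wfdc3: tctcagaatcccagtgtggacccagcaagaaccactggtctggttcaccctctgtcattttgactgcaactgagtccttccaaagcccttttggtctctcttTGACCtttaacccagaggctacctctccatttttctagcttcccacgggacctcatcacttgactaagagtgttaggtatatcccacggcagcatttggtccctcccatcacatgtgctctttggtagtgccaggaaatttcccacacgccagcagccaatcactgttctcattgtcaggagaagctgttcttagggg
In sections Wfdc3 was too sparse to compare. It was represented by 10 UMIs in CO A and 11 in CO B, while DES A had 9 and DES B 13, and a difference was not detectable at this depth (log2 0.16, SE 0.52, edgeR adjusted p = 0.89). Too few counts were left to test it in any region. The genes most like Wfdc3 over the 31 epithelial clusters were Ttr (r = 0.93), Lyz1 (r = 0.89) and RP23-78P7.2 (r = 0.89), among 4688 genes compared.

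Wfdc18 was the member with the largest fold difference between the CO and DES samples. In non-basal epithelial cells it was 5.00 CPM in CO (4.52 to 5.52) and 35.1 CPM in DES (34.2 to 36.0), a ratio of 7.03 (counting interval 6.34 to 7.80) that placed it above 97.1% of the 16040 genes. It was also concentrated in few cells. DES cluster 5, proposed by the study as cancer cells, made up 6.40% of these DES cells and held 46.2% of their Wfdc18 UMIs at 299.8 CPM (288 to 311). DES cluster 15 held 137 CPM, cluster 13 held 65.1 CPM, and the other 13 DES clusters lay between 1.75 CPM in cluster 7 and 32.3 CPM in cluster 0. The tenth of DES cells with the most Wfdc18 held 88.3% of its UMIs, and 1 cell held 505 UMIs. Within DES cluster 5 the corresponding share was 91.6% of 2660 UMIs, and the cell with 505 UMIs lay in this cluster. Over its 295 cells, Wfdc18 UMIs per 10000 had a median of 0 and an upper quartile of 0.689. The 299.8 CPM of this cluster therefore came mostly from a small part of its cells, a spread its counting interval does not cover. After thinning to 3000 UMIs, 17.2% of 290 cells of DES cluster 5 carried Wfdc18 (13.1% to 22.1%) against 0.763% to 3.21% of DES myeloid cells and lymphocytes.

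In CO epithelium the carriers of Wfdc18 were cluster 13 at 57.3 CPM (42.6 to 75.3) and the luminal cluster 11, a cluster with Foxa2, at 39.1 CPM (33.0 to 45.9). The latter held 147 of 394 UMIs (37.3%). The other CO clusters held at most 6.22 CPM, in cluster 12. In the DES basal clusters 8 and 11 of the integrated clustering it was 11.4 and 46.5 CPM. Of the other types, CO myeloid cells held 16.2 CPM from 10 UMIs in 4 of 67 cells, and all remaining types with enough cells held at most 7.35 CPM.

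The Wfdc18 promoter is shown because this member had the largest fold difference (RefSeq, GRCm38.p6, chr11:83708754-83709053, plus strand, same window). Capitals mark TATAAA, the TATA box motif, which begins 31 bases before the start and was found in 14.2% of promoters on either strand.
Wfdc18: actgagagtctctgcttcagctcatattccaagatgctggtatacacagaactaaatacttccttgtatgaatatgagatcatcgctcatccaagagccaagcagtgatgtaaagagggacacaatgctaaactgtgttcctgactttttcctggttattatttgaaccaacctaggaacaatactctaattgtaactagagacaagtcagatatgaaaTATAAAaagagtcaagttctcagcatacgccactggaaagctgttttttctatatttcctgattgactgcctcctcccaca
The forkhead motif TGTTTAC, found in 3.55% of promoters, was in none of the 4 member promoters, which says nothing of binding by those factors.

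In sections Wfdc18 was higher in DES in each region. Over whole sections it was 12.2 CPM in CO A and 13.4 CPM in CO B, while DES A held 246 and DES B 130 CPM, so the lowest DES section stood far above both CO sections (log2 3.66, SE 0.35, edgeR adjusted p = 0.021). The basal markers moved the same way (3.92 and 169 against 9769 and 5820 CPM), and their part in the Wfdc18 difference was not tested. Epithelium-rich spots held 19.5 and 25.8 CPM in CO and 320 and 163 CPM in DES (log2 3.14, SE 0.38, edgeR adjusted p = 0.025). Stroma-rich spots held 5.06 and 0.633 CPM in CO, from 7 and 1 UMIs, and 92.9 and 78.4 CPM in DES (log2 4.81, edgeR adjusted p = 0.015), where 274 of 10838 genes (2.53%) passed. With 1 section left out the stroma-rich log2 ranged from 3.94 to 6.78. Muscle-rich spots held 0.792 and 1.27 CPM in CO, from 3 and 5 UMIs, and 63.7 and 41.6 CPM in DES (log2 5.33, SE 0.43, edgeR adjusted p = 0.00062), where 804 of 12028 genes (6.68%) passed. The folds against the nearly empty CO regions rest on few CO UMIs.

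The DES muscle-rich level of Wfdc18 was 19.9% and 25.6% of the epithelium-rich level of the same section, and the 5 epithelial markers gave 16.1% to 37.9% in DES A and 29.4% to 43.9% in DES B. The Wfdc18 share lay within the marker range in DES A and below it in DES B. The whole-section call missed the threshold without CO B (log2 3.70, edgeR adjusted p = 0.052), and the epithelium-rich call missed it without CO A (log2 2.99, edgeR adjusted p = 0.066) or without CO B (log2 3.33, edgeR adjusted p = 0.060).

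**Figure D3:**
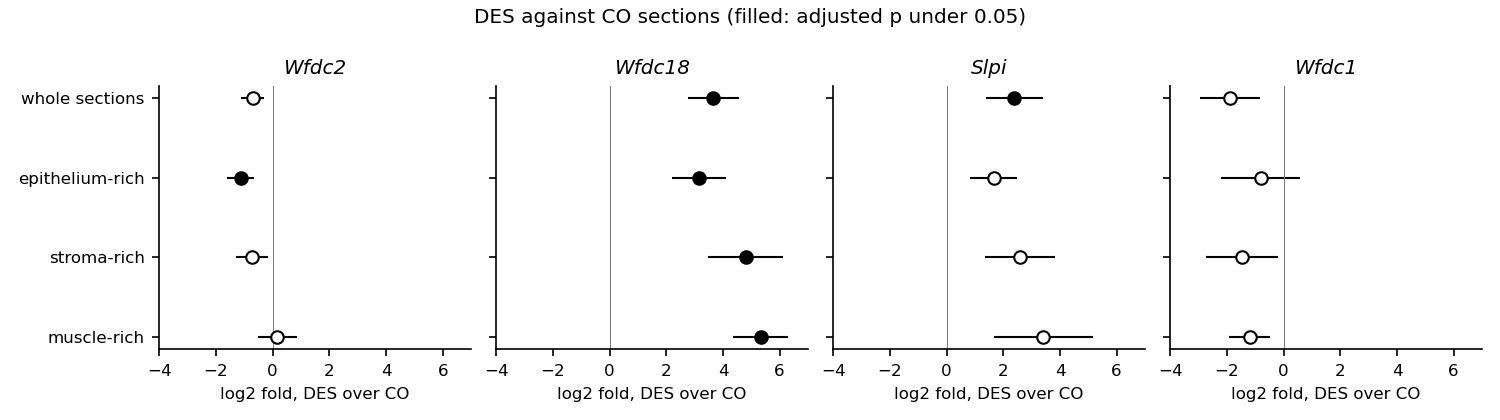
Log2 fold change, DES over CO, of Wfdc2, Wfdc18, Slpi and Wfdc1 in whole sections and in 3 regions, with 95% intervals from edgeR over 2 CO and 2 DES sections. Filled points passed an adjusted p of 0.05. Wfdc18 passed in all 4 comparisons, Slpi in whole sections and Wfdc2 in epithelium-rich spots.

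The CO B level of Wfdc18 came from a small patch. Its cluster 10, with 17 spots, held 114 of the 148 Wfdc18 UMIs of the section at 580 CPM, against 3.14 CPM in all other spots of CO B. The genes most concentrated in this cluster included, beside Wfdc18, the keratins Krt6a, Krt13, Krt5 and Krt14 of squamous and basal epithelium. Without the cluster, an alternative added after the data were seen, log2 was 4.37 in whole sections (edgeR adjusted p = 0.042) and 3.97 in epithelium-rich spots (edgeR adjusted p = 0.048). In CO A the highest level was in cluster 5, where the study placed glandular epithelium, with 91 of 153 UMIs at 82.0 CPM. In the DES sections cluster 8 of DES A (643 CPM) and cluster 7 of DES B (370 CPM) were highest. Over the 31 epithelial clusters of the cells Wfdc18 was most like Yipf1 (r = 0.74), Pon2 (r = 0.71) and Ndufb10 (r = 0.71).

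Wfdc18 was higher with Olfm4, which the study used to mark the proposed cancer cells, in cells and in spots. In non-basal DES cells it was 19.8 CPM in 3607 cells without an Olfm4 UMI, 30.3 CPM at 1 to 4, 73.0 CPM at 5 to 19 and 352 CPM (336 to 368) in 119 cells with 20 or more. Wfdc2 showed no such order, with 4019, 4238, 4790 and 4073 CPM in the same classes, and median UMIs per cell were 21205, 40939, 47599 and 37408. In epithelium-rich spots of DES A Wfdc18 was 29.1, 75.8, 162 and 555 CPM over the same classes, and in DES B 46.7, 103, 106 and 225 CPM. Median UMIs per spot rose over these classes as well, from 2968 to 13619 in DES A and from 1098 to 15331 in DES B. By basal markers, Wfdc18 in DES A was 19.2, 4.57, 52.5 and 350 CPM in epithelium-rich spots of 0, 1 to 4, 5 to 19 and 20 or more basal UMIs, where the lower pair of classes held 1 Wfdc18 UMI each, and in DES B it was 0, 263, 92.1 and 167 CPM. In neither DES section did an epithelium-rich spot hold 5 or more Olfm4 UMIs with fewer than 5 basal UMIs, so Olfm4 could not be read there without basal markers. Among spots with 5 or more basal UMIs, Wfdc18 was 78.2 CPM at fewer than 5 Olfm4 UMIs and 387 CPM at 5 or more in DES A, and 88.7 and 172 CPM in DES B. Among spots with fewer than 5 Olfm4 UMIs, it was 7.38 CPM at fewer than 5 basal UMIs and 78.2 CPM at 5 or more in DES A, but 254 and 88.7 CPM in DES B. The first value came from 2 UMIs in DES A and from 14 UMIs in DES B. The top Olfm4 class of spots held 70.9% of the Wfdc18 UMIs of DES A and 58.5% of those of DES B. Between epithelium-rich spots with and without an Olfm4 UMI in the 2 DES sections, the log2 difference was 3.22 (SE 0.42, edgeR adjusted p = 1.6e-11), where 178 of 11731 genes (1.52%) passed. That p-value rests on a spread pooled over genes more than on the spread of the 2 sections. Taken singly and without a test, the sections gave log2 differences of 2.03 and 3.62. The spots without Olfm4 held only 10 and 3 Wfdc18 UMIs. With a limit of at least 3 Olfm4 UMIs in place of 1, the log2 difference was 1.88 and the call was lost (edgeR adjusted p = 0.36). Wfdc2 (log2 -0.33, edgeR adjusted p = 0.86) and Slpi (log2 0.88, edgeR adjusted p = 0.83) did not pass.

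**Figure D4:**
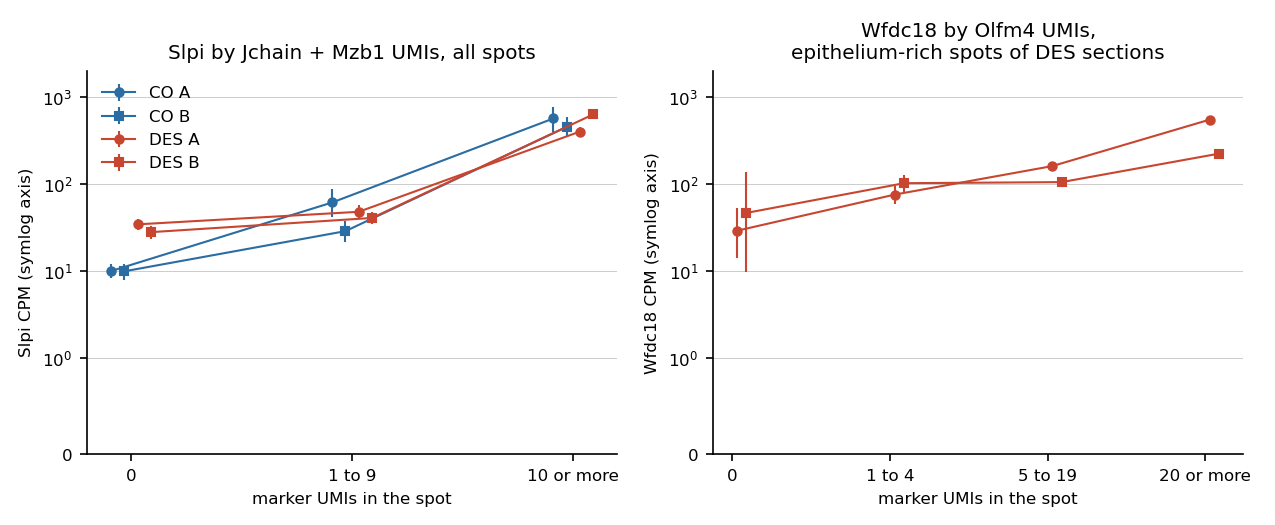
Left: Slpi CPM in spots grouped by UMIs of the plasma cell genes Jchain and Mzb1 in the 4 sections. Right: Wfdc18 CPM in epithelium-rich spots of the DES sections grouped by Olfm4 UMIs. Axes are linear below 1 and logarithmic above, bars are exact Poisson 95% intervals and lines join the classes of 1 section. Slpi stood between 404 and 637 CPM in the top plasma class of every section, and Wfdc18 was highest in the top Olfm4 class of both DES sections.

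Among the single cells Slpi was highest in mesothelial cells and, in CO, in plasma-marker cells. In mesothelial cells it was 1055 CPM in 6866 CO cells (1048 to 1062) and 2866 CPM in 3837 DES cells (2853 to 2879). After thinning, 71.6% of CO (70.5% to 72.7%) and 86.5% of DES (85.4% to 87.6%) mesothelial cells carried it. The median over single mesothelial cells was 5.91 UMIs per 10000 in CO and 16.8 in DES. Among the other types it was 825 CPM in CO and 343 CPM in DES cells typed as lymphocytes, and 784 CPM in the 22 CO cells of the Stmn1-hi class. The lymphocyte class was split by marker UMIs after the data were seen. In the CO lymphocyte class 37 cells with at least 10 UMIs of Jchain and Mzb1, which serve antibody secretion, held 1609 of the 1855 Slpi UMIs at 3109 CPM (2959 to 3265). The 22 CO cells with neutrophil markers held 349 CPM and the remaining 364 cells 129 CPM. The DES lymphocyte class held 1 plasma-marker cell, with 131 Slpi UMIs.

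Epithelial Slpi was low, at 32.1 CPM in CO and 20.2 CPM in DES epithelial cells. These levels were 3.04% and 0.706% of the mesothelial level, where the mesothelial markers Msln and Upk3b gave 1.97% to 2.16% in CO and 0.752% to 1.33% in DES. The DES share lay below those of these markers and the CO share above them. Over epithelial clusters Slpi ranged from 12.8 to 77.1 CPM in CO and from 12.3 to 37.6 CPM in DES, and basal cluster 8 held 56.9 CPM. The CO mean therefore hides clusters with higher levels. The highest, CO cluster 14, rests on 70 UMIs, and CO cluster 11 held 266 UMIs, 10.5% of those of CO epithelium in 3.76% of its cells. In DES myeloid cells with high Lyz2 it was 191 CPM, 6.66% of the DES mesothelial level, where the mesothelial markers gave 2.14% to 2.68%. The 193 CPM of CO myeloid cells (18.3%, markers 14.8% to 22.1%) and the 48.1 CPM of other DES myeloid cells (1.68%, markers 1.416% to 1.9995%) lay within the marker range and were not compared.

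In whole sections Slpi was 15.0 CPM in CO A and 18.2 CPM in CO B, while DES A held 67.9 and DES B 132 CPM, with no overlap between the groups (log2 2.39, SE 0.38, edgeR adjusted p = 0.040). The call was lost without CO A (log2 2.28, edgeR adjusted p = 0.11), without CO B (log2 2.51, edgeR adjusted p = 0.12) and without DES B (log2 1.78, edgeR adjusted p = 0.12). Muscle-rich spots held 15.8 and 21.8 CPM in CO and 106 and 372 CPM in DES (log2 3.41, SE 0.68, edgeR adjusted p = 0.055). Stroma-rich spots held 23.1 and 46.9 CPM in CO and 145 and 313 CPM in DES (log2 2.58, edgeR adjusted p = 0.059), and epithelium-rich spots 12.9 and 7.44 CPM in CO and 41.6 and 36.8 CPM in DES (log2 1.65, edgeR adjusted p = 0.058). Both DES sections were above both CO sections in each region, while none of the 3 regional differences passed the threshold. In non-basal epithelial cells Slpi had the opposite order, with 32.1 CPM in CO and 18.6 CPM in DES. That ratio was 0.578 (counting interval 0.548 to 0.610), with no replicate check. Calls were made in 4 of 10 alternatives for epithelium-rich, 3 of 9 for stroma-rich and 4 of 9 for muscle-rich spots. The muscle-rich log2 was 2.19 without DES B and 4.05 without DES A, and over all alternatives it ranged from 1.21 to 4.38. With 1 section left out, the stroma-rich log2 ranged from 1.90 to 3.18 and the epithelium-rich log2 from 1.31 to 2.17.

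Slpi was higher in spots with more plasma cell UMIs in each section. In spots with no UMI of Jchain or Mzb1 it was 9.96 CPM in CO A and 9.90 CPM in CO B, while DES A held 34.4 and DES B 28.0 CPM. In spots with 10 or more it was 572, 457, 404 and 637 CPM in the same order. The top class was 12 spots of CO A and 27 of CO B, with 105 of DES A and 171 of DES B, and it held 20.3%, 29.4%, 48.1% and 78.5% of the Slpi UMIs. Spots with no plasma UMI held 63.6% of them in CO A and 44.8% in CO B, against 33.3% in DES A and 9.69% in DES B. In CO A the gland cluster 5 held 78 of 187 Slpi UMIs at 70.3 CPM, and in DES A cluster 8, the cluster with the most Wfdc18, held 105 CPM with a Slpi UMI in 62.3% of its spots. Summed CPM of Jchain and Mzb1 over whole sections was 39.1 and 112 in CO and 523 and 878 in DES, so the plasma genes moved with Slpi between the groups. The test was repeated in the spots with no plasma UMI, an alternative added after the data were seen. There the difference over whole sections was smaller and passed (log2 1.39, edgeR adjusted p = 0.029). Epithelium-rich spots of this kind held 10.4 and 3.71 CPM of Slpi in CO and 33.7 and 16.6 CPM in DES. The stroma-rich values were 6.31 and 6.84 against 28.2 and 106 CPM, and the muscle-rich values 10.4 and 18.9 against 46.9 and 38.4 CPM. Over the 37 spot clusters the genes most like Slpi were Igkc (r = 0.87), Jchain (r = 0.87) and Ighm (r = 0.85), genes of antibody production.

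The relation of Slpi spots to mesothelial markers depended on the marker rule. Spots with an Msln UMI held 387 CPM for CO B, 341 CPM for DES A and 687 CPM for DES B, against 15.5, 65.6 and 114 CPM in the other spots of those sections, and 63.6 against 14.3 CPM in CO A from 10 UMIs. With a UMI of any of Msln, Upk3b and Lrrn4, Slpi was 36.9 against 14.3 CPM in CO A and 233 against 15.6 CPM in CO B, but 54.6 against 70.2 CPM in DES A and 130.2 against 131.9 CPM in DES B, where marker spots did not stand higher. The 4 mesothelial markers summed to 35.4 and 49.1 CPM in CO and 40.8 and 48.0 CPM in DES sections, so the marker sums overlapped where Slpi did not. The 5 neutrophil markers summed to 16.7 and 16.4 CPM in CO, but differed between DES A (281 CPM) and DES B (28.3 CPM).

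Wfdc1 was found in mesothelium, in cells that support vessels and muscle, and in muscle-rich spots. In cells it was 121 CPM in the CO class named Ctla2a (109 to 135), 108 CPM in CO and 129 CPM in DES mesothelial cells, 61.4 CPM in Stmn1-hi cells, 39.7 CPM in pericytes, which wrap small vessels, and 22.8 CPM in 85 myocytes (14.8 to 33.7). It was 9.37 CPM in stromal cells and 1.79 CPM in CO and 0.761 CPM in DES epithelial cells. The epithelial values were 1.65% and 0.590% of the mesothelial level, below the 1.97% to 2.16% and 0.752% to 1.33% of the mesothelial markers. The source of these epithelial UMIs was not tested. The Ctla2a and CO mesothelial intervals were close, 109 to 135 and 106 to 111, and the pericyte interval of 21.7 to 66.6 overlapped both the Stmn1-hi and the myocyte intervals. In mesothelial cells, 28.0% of CO and 29.1% of DES cells carried it after thinning. Where Wfdc1 was present, Slpi was 1120 CPM in CO and 3026 CPM in DES mesothelial cells, and where it was not, 919 and 2165 CPM.

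In sections Wfdc1 lay in the muscle. Muscle-rich spots held 111 CPM for CO A and 207 CPM for CO B, while DES A had 90.2 and DES B 76.4 CPM (log2 DES over CO -1.20, SE 0.32, edgeR adjusted p = 0.066). Whole sections held 38.0 and 86.6 CPM in CO and 18.0 and 20.4 CPM in DES (log2 -1.89, SE 0.41, edgeR adjusted p = 0.074). Stroma-rich spots held 15.9 and 44.3 CPM in CO and 10.97 and 13.2 CPM in DES (log2 -1.46, edgeR adjusted p = 0.25), and epithelium-rich spots 4.36 and 12.7 CPM in CO and 5.53 and 5.94 CPM in DES (log2 -0.80, edgeR adjusted p = 0.42). DES sections were below CO sections outside epithelium-rich spots, but no difference passed by edgeR. Calls were made in 4 of 9 alternatives for whole sections, 5 of 9 for muscle-rich, 2 of 9 for stroma-rich and 1 of 10 for epithelium-rich spots, DESeq2 on muscle-rich spots among them (adjusted p = 0.027). With 1 section left out the log2 ranged from -2.01 to -0.53 in stroma-rich and from -1.36 to 0.11 in epithelium-rich spots. It ranged from -2.35 to -1.21 in whole sections and from -1.58 to -0.71 in muscle-rich spots. The 5 muscle markers summed to 38673 and 36259 CPM in CO and 18629 and 15011 CPM in DES muscle-rich spots. Over whole sections they summed to 12151 and 13677 CPM in CO and 3296 and 3756 CPM in DES. Their part in the lower Wfdc1 values was not tested. Over the 37 spot clusters Wfdc1 was most like Ppp1r14a (r = 0.96), Cacna1c (r = 0.95) and Lims2 (r = 0.94), of which Ppp1r14a and Cacna1c serve smooth muscle contraction. In epithelial clusters it reached at most 3.37 CPM, and no likeness was read from so low a level.

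The 4 members that could be tested between epithelium-rich and muscle-rich spots of the same section were compared within each condition, and 3 of them, Wfdc2, Wfdc18 and Wfdc1, passed with the same direction in both. In CO the log2 difference, epithelium-rich over muscle-rich, was 2.64 for Wfdc2 (edgeR adjusted p = 2.1e-05), 4.31 for Wfdc18 (edgeR adjusted p = 8.8e-06) and -4.42 for Wfdc1 (edgeR adjusted p = 1.9e-06), while Slpi at -0.996 did not pass (edgeR adjusted p = 0.19). So many genes differ between these regions that 7202 of 13546 (53.2%) passed in CO. In DES the difference was 1.36 for Wfdc2 (edgeR adjusted p = 0.0019), 2.09 for Wfdc18 (edgeR adjusted p = 9.3e-05), -3.90 for Wfdc1 (edgeR adjusted p = 2.6e-05) and -2.46 for Slpi (edgeR adjusted p = 0.015), where 3811 genes (28.1%) passed. The Slpi call in DES was lost without CO B (edgeR adjusted p = 0.29), without DES B (log2 -1.38, edgeR adjusted p = 0.12) and with no filter on low counts (edgeR adjusted p = 0.23), and that of Wfdc2 without DES A (edgeR adjusted p = 0.076). The contrast was smaller in DES than in CO for Wfdc2 (log2 -1.28, SE 0.29, edgeR adjusted p = 0.027) and Wfdc18 (log2 -2.21, SE 0.38, edgeR adjusted p = 0.011), where 1341 genes (9.90%) passed. It did not pass for Slpi (log2 -1.46, edgeR adjusted p = 0.30) or Wfdc1 (log2 0.52, edgeR adjusted p = 0.32).

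Of 18 other WAP-domain genes on a fixed list, 17 were in the single-cell table and 4 reached 20 CPM in a cell type or epithelial cluster. Wfdc10 peaked at 411 CPM in CO cluster 8, the cluster with the most Wfdc2. Wfdc15b peaked at 149 CPM (125 to 177) in CO cluster 13, the cluster with Wfdc3. In DES cluster 8 it was 129 CPM (120 to 139). Over non-basal epithelial cells Wfdc15b was 14.1 CPM in CO and 41.5 CPM in DES, a ratio of 2.94 (counting interval 2.76 to 3.13). Wfdc17 peaked at 3306 CPM in DES myeloid cells with high Lyz2, and Wfdc21 at 123 CPM in DES cells typed as lymphocytes. In epithelium-rich spots 4 of the 18 could be tested and 1, Wfdc17, was higher in DES (log2 3.07, SE 0.29, edgeR adjusted p = 0.020), against 5.18% of all genes called. The 5 myeloid markers summed to 222 and 398 CPM in CO and 2365 and 1224 CPM in DES in the same spots, and their part in the Wfdc17 difference was not tested. The median log2 difference of this list was 0.03 in epithelium-rich spots, against -0.02 for all genes. Over whole sections edgeR called 0 of the 5 tested (1 at an unadjusted p under 0.05, 1 by DESeq2), with a median of -0.82. In stroma-rich spots 0 of 3 and in muscle-rich spots 0 of 4 were called by edgeR, and in both 0 passed unadjusted or by DESeq2, with medians of 0.31 and -0.41.

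The proteases that such inhibitors meet were read from a fixed list of 35 serine protease genes. Over whole sections 25 were tested, 1 rose and 7 fell in DES, against 5.18% of all genes called, with a median log2 of -0.60 against -0.01 for all genes. In epithelium-rich spots 1 was higher and 2 were lower of 21, against 5.18% of all genes called. In stroma-rich spots 1 was higher and 2 were lower of 17, against 2.53%. In muscle-rich spots 4 were higher and 3 lower of 20, against 6.68%, and St14, Prss27, Tmprss2 and Tmprss11g rose. Whether the balance differed between regions was not tested. The 5 epithelial markers in these muscle-rich spots summed to 349 and 363 CPM in CO and 827 and 1327 CPM in DES. Their part in these rises was not tested. Prss27 rose from 1 and 0 UMIs in the CO sections to 266 and 132 UMIs in the DES sections (edgeR adjusted p = 0.021), and its fold rests on those few CO UMIs. In non-basal epithelial cells it was 0.495 CPM in CO and 0.475 CPM in DES, a ratio of 0.961 (counting interval 0.646 to 1.45). The mast cell proteases Mcpt4 (log2 -4.66), Cma1 (log2 -4.19) and Tpsb2 (log2 -4.84) fell, as did the kallikrein Klk1 (log2 -3.92), with edgeR adjusted p between 0.030 and 0.042. In CO sections Mcpt4, Cma1 and Tpsb2 were lower in epithelium-rich than in muscle-rich spots. The 5 muscle markers over whole sections summed to 12151 and 13677 CPM in CO and 3296 and 3756 CPM in DES. Their part in these falls was not tested. In cells, Prss28 and Prss29, secreted by uterine glands, peaked in CO cluster 13 at 15773 and 51277 CPM, where Wfdc3 also peaked. Neither had a UMI in the 4608 non-basal DES cells, which allows up to 0.0183 CPM at 3 UMIs. The neutrophil proteases Elane and Ctsg, both inhibited by Slpi, peaked at 14.1 and 28.2 CPM in DES cells typed as lymphocytes.

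Of 10 other serine protease inhibitors, 6 were tested over whole sections and 1 rose in DES, against 5.18% of all genes called. It was Spink8 (log2 3.61, SE 0.52, edgeR adjusted p = 0.034). The list median was 1.051 against -0.01 for all genes. In non-basal epithelial cells Spink8 was lower in DES, at 1.55 CPM against 3.13 CPM in CO, a ratio of 0.494 (counting interval 0.413 to 0.591). In muscle-rich spots 3 of 4 rose by edgeR, Spink12 (log2 2.40, adjusted p = 0.017), Spint1 (log2 2.77, adjusted p = 0.022) and Spink5, which had 0 and 1 UMIs in CO and 36 and 37 UMIs in DES. The 5 epithelial markers summed to 349 and 363 CPM in CO and 827 and 1327 CPM in DES in these spots, and their part was not tested. Of all genes 6.68% were called there, and the median log2 was 2.58 for the list and -0.0069 for all genes. Spint1, an epithelial membrane inhibitor, rose there as Wfdc18 did. Spink1, a gland inhibitor, peaked in CO cluster 13 at 17834 CPM and had no UMI in non-basal DES cells.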

How the data were processed

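Single-cell libraries (1 CO, 1 DES) and tissue sections (2 CO, 2 DES) were measured. The authors counted UMIs with Cell Ranger 3.0.1 and Space Ranger 1.2.2 on mm10, and the deposited counts are raw counts per gene and cell or spot. Cell types, epithelial clusters and spot clusters are the authors' own. The authors removed potential doublets. The fraction in the deposited metadata, the sequencing saturation, was not used.

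UMIs were summed over cells of each class as CPM. Shares of cells used cells thinned to 3000 UMIs (seed 20230) with exact Clopper-Pearson 95% intervals. Spot sums per section and region were tested with edgeR 4.0.16 (TMM, filterByExpr, robust quasi-likelihood test, Benjamini-Hochberg over all genes tested), with the section as a block where regions of 1 section were compared. The fits were tested on simulated data with known changes. DESeq2 1.42.0 was an alternative. Each section is from 1 mouse. The p-values rest on the spread of these sections, which edgeR combined with a spread pooled over genes. The members and lists were chosen with earlier results of these data known. By rule the text names the 5 members, other WAP-domain genes at 20 CPM or more, and protease and inhibitor genes by counts with examples. Likeness is Pearson's r of log levels over clusters, among genes reaching 50 CPM. The likeness of Slpi and Wfdc1 over epithelial clusters is not reported here. Alternatives are given in the closing section. Sections carry the letters of the study, since the labels give a letter only for the B sections.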

Additional observations from a re-analysis of the deposited data

Results flagged for a closer look

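The contrast between epithelium-rich and muscle-rich spots differed between DES and CO sections for 2 members, by an interaction term in edgeR. For Wfdc2 the log2 contrast was 1.36 in DES and 2.64 in CO, a difference of -1.28 (edgeR adjusted p = 0.027). For Wfdc18 it was 2.09 in DES and 4.31 in CO, a difference of -2.21 (edgeR adjusted p = 0.011). The Wfdc2 call was lost without DES A (log2 -1.45, edgeR adjusted p = 0.12) and without DES B (log2 -1.07, edgeR adjusted p = 0.34). The Wfdc18 call was lost without DES B (log2 -2.02, edgeR adjusted p = 0.15) and with regions limited to the top 25% of spots by score (log2 -1.68, edgeR adjusted p = 0.24). The summed CPM of the 5 epithelial markers in muscle-rich spots was 349 and 363 in CO and 827 and 1327 in DES, so marker RNA in muscle-rich spots moved with both differences, and its part in them was not tested.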

How the results depend on the processing

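Of 298 member values under an alternative, 240 counted as unchanged, 18 lost a call, 28 gained one, 12 moved and 0 changed the sign of a called value. For tested values, unchanged meant the same side of the threshold, whatever the sign where neither fit was called. For untested values it meant within the counting interval or within 1 SE. Some uncalled values did change sign, as for Wfdc2 in muscle-rich spots (log2 0.17, lowest -0.19). The numbers of genes called moved more than the members' values. DESeq2 called 1791 genes in whole sections, 1641 in epithelium-rich spots, 2537 between regions in DES and 25 by Olfm4. With no filter beyond 1 count, 1029 genes were called in epithelium-rich, 1212 in stroma-rich and 1536 in muscle-rich spots. By Olfm4, 57 genes were called in the top 25% of spots and 71 with at least 3 Olfm4 UMIs. Leaving out 1 section gave 55 to 2796 genes in whole sections, 30 to 2555 in epithelium-rich, 72 to 1394 in stroma-rich and 134 to 2165 in muscle-rich spots, 6177 to 7506 between regions in CO, 979 to 5753 in DES and 5 to 3125 for the difference. The cause was not tested. Subtracting the lymphocyte CPM of each library put 7863 genes past 2-fold. Shares of cells rose with depth by construction. Wfdc3 in CO cluster 13 was 35.5% not thinned. Wfdc18 in DES cluster 5 was 23.5% at 5000 UMIs and 43.1% not thinned. In DES mesothelial cells Slpi was 91.9% and 94.3%, and Wfdc1 44.6% and 69.1%. No paired analysis was possible because the section numbers name separate mice of 2 groups and the labels tie no CO section to a DES section. With 2 sections a group and 1 library a condition, small differences were not detectable, and the single-cell differences have no replicate check.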
